A study of Mus musculus with 80 samples.

Results

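The transcripts examined here are 8 genes of the thyroid hormone pathway, out of 25899 genes in the deposited table. They were picked by name: the deiodinases Dio1, Dio2 and Dio3, the thyrotropin receptor Tshr, the hormone transporter Slc16a10, the cytosolic hormone-binding protein Crym, and the nuclear receptors Thra and Thrb. At least 1 read was found for 7 of the 8 in the libraries used, the exception being Dio1.

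Muscle stem cells (MuSCs) were sorted from the extraocular muscles (EOM), which move the eye, and from the tibialis anterior (TA), a muscle of the lower leg. The donors were 7.6-week-old (Exp1) or 7-week-old (Exp2) male Tg:Pax7-nGFP mice on a C57BL/6;DBA2 F1/JRj background, in which a nuclear GFP driven by Pax7 marks the stem cells. Cells were either lysed directly (pre-graft, 500 cells) or placed in the pre-injured TA of an immunodeficient Rag2-/-;γC-/- host (C57BL/6J), EOM cells of a donor on one side and TA cells of that donor on the other, and GFP+ cells were sorted again at day 21 by the labels (post-graft), while the text of the study also gives later times. Every group therefore carries the same transgene, grafted cells of both origins met a TA environment after cardiotoxin injury, and the second sort was set to take cells that still express the reporter, which host cells do not carry.

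RNA from 10 donor mice gave 40 libraries, of which 30 passed the study's quality control and were used: 8 EOM and 8 TA before grafting, 7 EOM and 7 TA after it. Both experiments are present in each group, but Exp1 gave only 1 passing graft of each origin. The passing libraries held 3326270 to 14402975 sequenced reads and 963432 to 4169357 reads on genes, so that 1 read was worth 0.350 to 1.55 RPM, the deposited unit, in which reads are scaled to a common library total. A gene with 0 reads in a library could thus have stood at up to 1.05 to 4.64 RPM there, taking 3 reads as the limit and covering counting error only. By their labels the grafts came from few cells, 9 to 60 for EOM in Exp2 and 16 to 67 for TA, with over 100 in the Exp1 EOM graft (for some grafts the study lists other numbers), and their mitochondrial share of reads on genes ran from 5.59% to 67.6% in EOM and from 8.73% to 81.1% in TA, against 2.96% to 9.18% and 3.47% to 28.8% before grafting. Pax7, the gene that defines the sort, had reads in each passing library, from 562 to 1133 in EOM and 841 to 2699 in TA before grafting and from 18 to 1100 and 11 to 1066 after it.

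Thyroid hormone reaches cells mainly as the prohormone thyroxine, and what a cell does with it depends on its own enzymes. Type 2 deiodinase (Dio2) removes an iodine from the outer ring and yields the active hormone triiodothyronine inside the cell, type 3 deiodinase (Dio3) removes one from the inner ring and inactivates it, and type 1 (Dio1) can do both. Hormone crosses the membrane through transporters such as MCT10 (Slc16a10), is held in the cytosol by mu-crystallin (Crym), and acts on genes through the nuclear receptors encoded by Thra and Thrb. The thyrotropin receptor (Tshr) is best known in the thyroid gland, where it raises cyclic AMP through the G protein Gs. In skeletal muscle, Dio2 and the receptors are known for their part in stem cell differentiation, in regeneration and in fibre type.

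All 3 deiodinases are selenoproteins, which read an in-frame TGA as selenocysteine at the catalytic centre. The windows around that codon are shown because they are what makes the 3 genes one family and separates them from the other members. They were read from the coding exons of the GRCm38 mouse genome, 5′ to 3′ on the transcribed strand, with the selenocysteine codon in capitals. The codon lies in exon 2 of 4 of Dio1 (chr4:107297700-107297702, minus strand), in exon 2 of 2 of Dio2 (chr12:90729823-90729825, minus strand) and in the single exon of Dio3 (chr12:110279739-110279741, plus strand). A second annotated selenocysteine codon of Dio2 lies in the same exon, at chr12:90729424-90729426.
Dio1: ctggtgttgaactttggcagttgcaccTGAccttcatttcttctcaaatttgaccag
Dio2, catalytic codon: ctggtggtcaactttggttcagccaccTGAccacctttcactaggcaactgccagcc
Dio3: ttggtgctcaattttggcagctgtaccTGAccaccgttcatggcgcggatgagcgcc
Dio2, second codon: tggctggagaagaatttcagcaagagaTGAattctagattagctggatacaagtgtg

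Over the 57 bases around the catalytic codon, Dio2 and Dio3 share 36 bases (63.2%), Dio1 and Dio3 share 32 (56.1%) and Dio1 and Dio2 share 31 (54.4%). The 3 genes are therefore alike in sequence at the active site but, as given next, far apart in read number.

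The promoter window of Dio2 is shown because Dio2 and the cyclic AMP-coupled receptor Tshr were the members that differed between EOM and TA. It is RefSeq sequence of GRCm38.p6, chr12:90738989-90739288 on the minus strand, from 250 bases before to 50 bases after the start annotated by RefSeq, and it lies beyond the 5′ end of Dio2 as the deposited table places it. The capitals mark the letters TGACGTCA, the cyclic AMP response element.
Dio2 promoter: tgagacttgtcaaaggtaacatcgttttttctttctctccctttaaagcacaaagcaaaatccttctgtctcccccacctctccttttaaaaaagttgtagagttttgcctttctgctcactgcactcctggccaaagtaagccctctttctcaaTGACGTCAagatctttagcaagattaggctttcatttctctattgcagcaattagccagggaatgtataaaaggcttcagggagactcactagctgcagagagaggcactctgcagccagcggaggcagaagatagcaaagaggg

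These letters begin 95 bases before the start, and 588 of 32851 promoter windows of this length (1.79%) hold them on either strand. The hormone half-site AGGTCA was found in 16.3% of all windows and the E-box CAGCTG in 16.3%, again on either strand, and neither was found in the Dio2 window. A window was at hand for 5 of the 8 members. Of the other 4 members with one, Dio1, Dio3 and Slc16a10 held none of the 3 motifs and 1 of the Thrb windows held AGGTCA. A match of letters is a description of the sequence only.

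Dio2 was abundant in EOM MuSCs before grafting and about an order of magnitude lower in TA MuSCs. Its reads in the 8 EOM libraries were 1762, 1294 and 1831 in Exp1 and 1425, 1467, 3585, 3117 and 2594 in Exp2. In the 8 TA libraries they were 211 and 58 in Exp1 and 186, 353, 225, 84, 111 and 114 in Exp2. The lowest EOM library stood above the highest TA library, also in RPM, where EOM ran from 513 to 1353 and TA from 44.5 to 148. Mean log2 RPM was 9.87 ± 0.43 (SD, n = 8) in EOM and 6.44 ± 0.69 (SD, n = 8) in TA, a difference of 3.43 (SE 0.25, adjusted p = 6.64e-09, limma), or 10.8-fold.

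Dio1 and Dio3, in contrast, were all but unread. Dio1 had 0 reads in each of the 30 passing libraries, which allows at most 0.171 RPM over the EOM and 0.211 RPM over the TA libraries before grafting. Dio3 had 6 reads in 1 TA library before grafting (Exp1 replicate 4) and 0 in the other 29. Neither passed the filter on low values, so no difference between groups was tested for them, and the enzyme that inactivates the hormone was near the limit of detection where the activating one stood at 513 RPM or more in EOM.

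**Figure D1:**
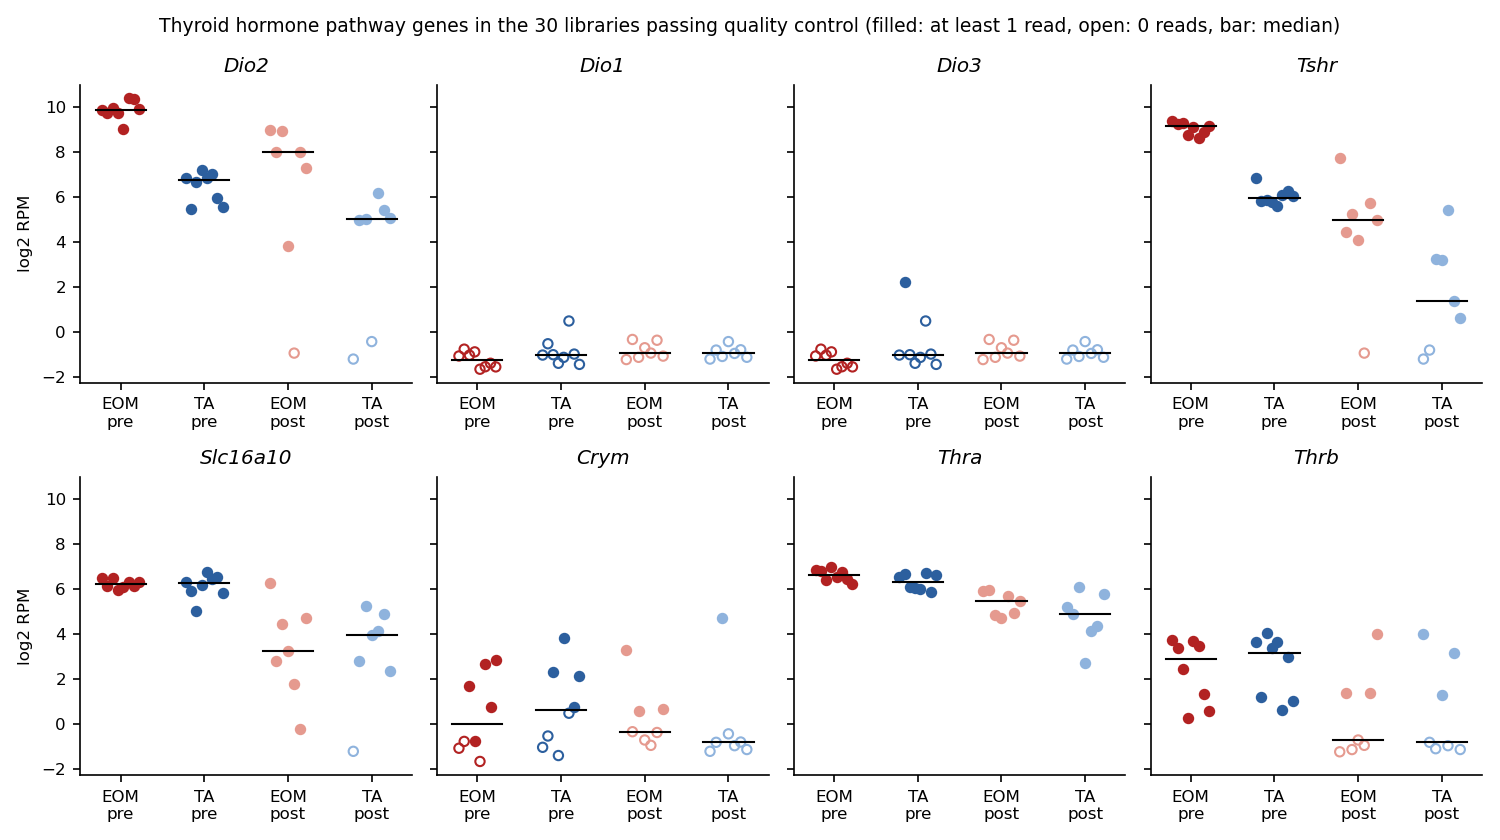
Deposited log2 RPM of the 8 genes in each of the 30 passing libraries, grouped by muscle of origin and stage, with 1 point per library (open where the gene had 0 reads) and a bar at the group median. Dio2 and Tshr form separate EOM and TA clouds before grafting (9.87 against 6.44 and 9.06 against 6.04 on average), while the clouds of Thra, Thrb, Slc16a10 and Crym overlap and Dio1 sits at the floor in all libraries.

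Tshr showed the same order. Its reads ran from 714 to 1603 in EOM (median 1148.5) and from 44 to 215 in TA (median 118.5), with no overlap between the groups in reads or in RPM (400 to 674 against 48.9 to 116). Mean log2 RPM was 9.06 ± 0.27 (SD, n = 8) in EOM and 6.04 ± 0.39 (SD, n = 8) in TA, a difference of 3.02 (SE 0.17, adjusted p = 2.09e-10, limma), or 8.13-fold. Reads of the receptor were thus found in each EOM library, outside the gland for which it is named.

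The nuclear receptor Thra was present in both muscles at like levels. Its reads ran from 156 to 287 (median 212) in EOM and from 69 to 246 (median 131.5) in TA, and the groups overlapped. The log2 difference was 0.31 (SE 0.18, 95% interval -0.04 to 0.65, adjusted p = 0.294), close to the shift of the median gene, 0.30. Thrb, the other receptor gene, was far lower, with 2 to 37 reads in EOM and 1 to 30 in TA, and its difference of -0.21 had an interval of -1.58 to 1.16 that leaves the direction unresolved. The 3′ end of Thra overlaps Nr1d1 on the opposite strand over 1075 bases (chr11:98767932-98769006), and since the counting did not use strand, reads there cannot be assigned to one of the pair.

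The transporter Slc16a10 had a median of 171 reads in EOM (log2 RPM 5.97 to 6.52) and of 145 in TA (5.04 to 6.75), and the ranges overlapped. Its log2 difference was 0.11 (SE 0.21, 95% interval -0.30 to 0.53, adjusted p = 0.772), and the sign of it turned under other scalings. Crym was at the edge of detection, with reads in 5 of 8 EOM libraries (at most 19) and 4 of 8 TA libraries (at most 28), and its difference of -0.35 had an interval of -2.02 to 1.31. Of the 6 genes that could be tested before grafting, 2 were called higher in EOM (adjusted p under 0.05 and a log2 change beyond 1) and 0 lower, where the background over all 13217 genes tested was 3.31% called higher and 1.26% called lower. The median gene was 0.30 higher in EOM on the log2 scale, and relative to it Dio2 was 3.13 and Tshr 2.73 higher.

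**Figure D2:**
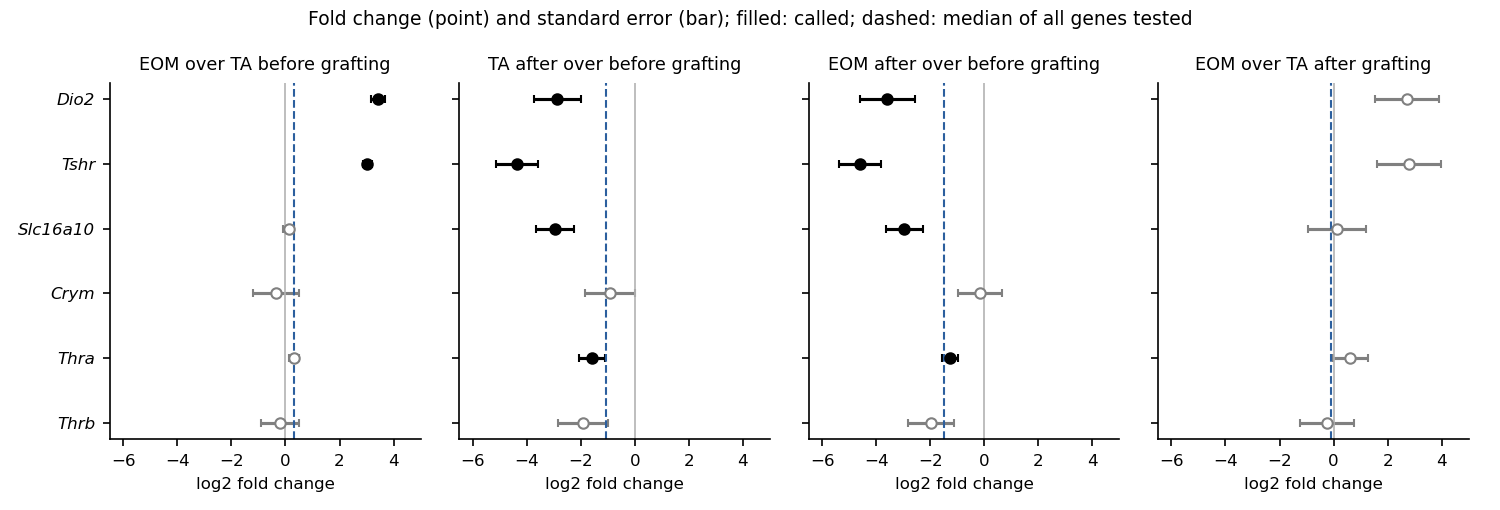
Log2 fold change (point) with its standard error (bar) for each tested member in the comparisons of EOM with TA and of post-graft with pre-graft cells, filled where called, with a dashed line at the median of all genes tested. Dio2 at 3.43 and Tshr at 3.02 are the members called between the muscles before grafting, and Dio2, Tshr, Slc16a10 and Thra lie below 0 after grafting in both muscles.

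Divided by the length of the exons, the levels can be set against each other between genes. In EOM before grafting Dio2 stood at 167 ± 46.1 RPM per kb (SD, n = 8) and Tshr at 90.4 ± 16.3, ahead of Thra at 21.8 ± 3.94 and Slc16a10 at 10.4 ± 1.40, with Thrb at 0.980 ± 0.697 and Crym at 0.703 ± 0.866. In TA the order was Thra at 17.9 ± 4.31, Dio2 at 16.3 ± 6.77, Tshr at 11.3 ± 3.54 and Slc16a10 at 10.1 ± 3.20, with Thrb at 1.11 and Crym at 0.928. Neighbours in the TA order differed by less than the larger of their SDs down to Slc16a10, whereas in EOM the steps from Dio2 to Tshr and from Tshr to Thra were larger than the SDs and only Thrb and Crym could not be ordered.

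The difference between the muscles was seen in each experiment and in each donor. Within Exp1 (3 EOM and 2 TA libraries) the mean log2 difference was 3.68 for Dio2 and 2.96 for Tshr, and within Exp2 (5 and 6 libraries) it was 3.35 and 2.98. In the 7 donors with both muscles passing, Dio2 was higher in EOM in 7 of 7, by 1.79 to 4.40 (median 3.38), and Tshr in 7 of 7, by 2.53 to 3.42 (median 2.86). Thra was higher in 6 of 7 donors, by -0.39 to 0.89.

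**Figure D3:**
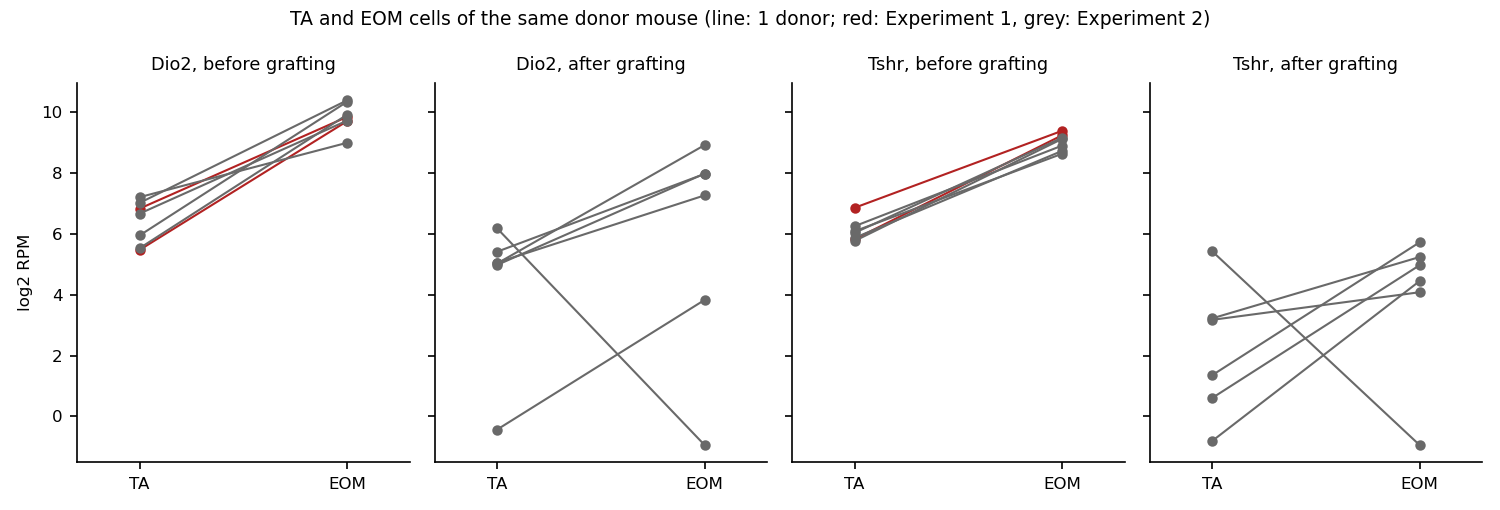
Log2 RPM of Dio2 and Tshr in EOM and TA cells of the same donor mouse, before grafting (7 donors) and after it (6 donors), with 1 line per donor (red for Exp1, grey for Exp2) and libraries with 0 reads drawn at their own floor. All 7 lines slope the same way before grafting, and 5 of 6 do so afterwards for each gene.

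Markers of other cell types that the gate might hold were read in the same libraries. The 11 muscle stem cell markers summed to 15316 to 18921 RPM in EOM and 13956 to 23248 RPM in TA, with reads for all 11 in both groups, and 1 of them was called higher in EOM (Chrdl2) and 2 lower (Pax7 by 1.15 and Myod1 by 2.02). Of 8 fibro-adipogenic markers, Dcn and Cd34 were called higher, and their sum ran from 1088 to 2506 RPM in EOM and from 847 to 2875 in TA. The oligodendrocyte markers summed to 36.6 to 1370 RPM in EOM and 9.58 to 151 in TA, with Mobp called higher in EOM, and the Schwann cell markers to at most 3829 RPM in EOM and 1132 in TA. The EOM library with the lowest oligodendrocyte sum (Exp2 replicate 4, 36.6 RPM, inside the TA range) had the highest Dio2 value (log2 RPM 10.40) and the lowest Tshr value of the 8 EOM libraries (8.64). Both lay above every TA library, as the values of all 8 EOM libraries did. This is 1 library, and it also held 399 RPM of Schwann cell markers and 1602 RPM of fibro-adipogenic markers. Of the 8 endothelial markers 7 were lower in EOM (median -2.83 against 0.30 over all genes), with Cdh5 called lower. Tek, the 1 that was higher, was called higher. Of the pericyte and smooth muscle markers Myh11 was called lower, and of the myofibre markers Acta1 and Myh4. Of the macrophage, Schwann cell, adipocyte and erythroid markers 0 were called, with the macrophage genes C1qa and C1qb at 0 reads in TA. Still, all 7 tested Schwann cell markers (median 1.59) and all 4 tested macrophage markers (median 1.62) were higher in EOM. The 1 tested adipocyte and 3 tested erythroid markers were lower. Macrophage sums reached 2101 RPM in EOM (median 35.1) and 32.5 in TA (median 26.7). The part of these markers in the differences of Dio2 and Tshr was not tested. In pooled cells, more cells of a type and more RNA per cell cannot be told apart.

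Dio2 and Tshr lie on the same chromosome. On GRCm38 the deposited table places Dio2 at chr12:90724554-90738438 (minus strand) and Tshr at chr12:91400993-91540509 (plus strand), 662.6 kb apart, with 4930534B04Rik and 5430427M07Rik between them. 4930534B04Rik, with 95 to 263 reads in EOM and 63 to 242 in TA, differed by -0.20 (adjusted p = 0.607), and 5430427M07Rik was not above the filter. Including on either side 5 genes with a read in some library, 12 neighbours were examined and 6 could be tested, none was called, and their log2 differences ran from -0.20 to 0.76. The lowest adjusted p among them was 0.0575, for the transcription factor gene Gtf2a1 (0.63 higher). The other members lie elsewhere in the genome, at chr4:107291465-107307169 (Dio1, minus), chr12:110279068-110281097 (Dio3, plus), chr11:98740638-98769006 (Thra, plus), chr14:17660960-18038088 (Thrb, plus), chr10:40033535-40142254 (Slc16a10, minus) and chr7:120186380-120202111 (Crym, minus), and all 8 are annotated as protein coding.

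**Figure D4:**
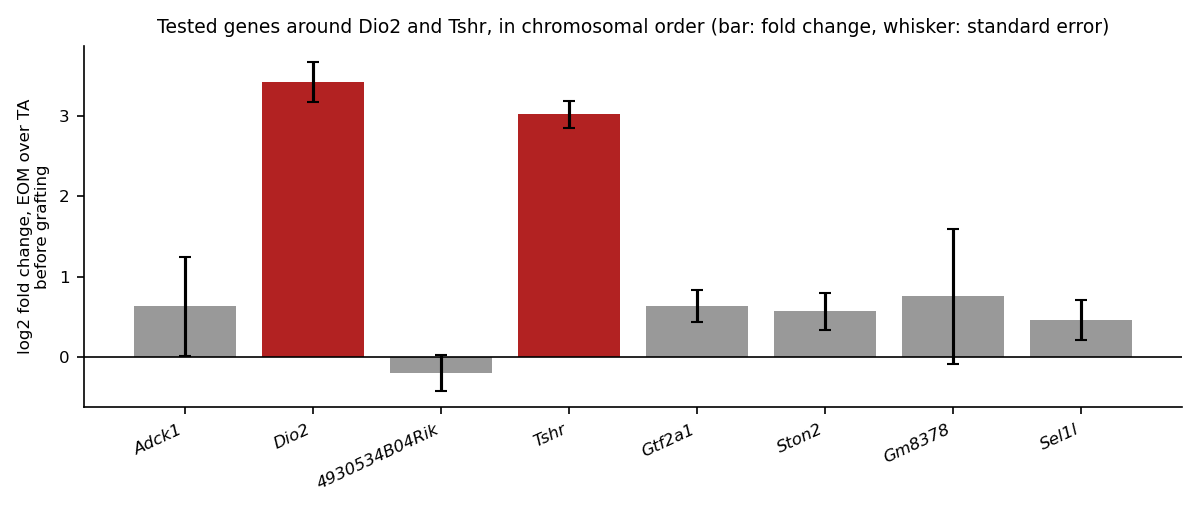
Log2 fold change of EOM over TA before grafting (bar) with its standard error (whisker) for the tested genes around Dio2 and Tshr, in chromosomal order. Dio2 at 3.43 and Tshr at 3.02 stand out while the 6 tested neighbours lie between -0.20 and 0.76.

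The rest of the pathway was followed through 91 other genes in 7 lists, of which 89 are in the table and 65 could be tested before grafting. There 4 were called higher (6.15%, against 3.31% of all genes) and 2 lower (3.08%, against 1.26%). The median log2 difference of the 65 was 0.17 against 0.30 over all genes. Among the other transporters and carriers, 1 of 6 tested was called: Slc7a8, an amino acid exchanger that also carries iodothyronines, was 1.32 lower in EOM (adjusted p = 0.00567). The serum carrier transthyretin (Ttr) was at 0 in all 30 libraries.

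The ligands of the thyrotropin receptor were at or near 0 before grafting. Tshb and Cga, the chains of thyrotropin, had 0 reads in all 16 pre-graft libraries, and Gphb5, a chain of the related hormone thyrostimulin, reached at most 18. After grafting Tshb had up to 16 reads in 3 EOM grafts and 5 in 1 TA graft. Downstream of the receptor, Gnas, which encodes the alpha subunit of Gs, was abundant in both muscles, with medians of 18584 reads in EOM and 11664 in TA and a difference of 0.32 (adjusted p = 0.292). None of the 10 tested ligand and transducer genes was called, and none of the 13 tested genes of deiodinase turnover and selenoprotein synthesis was either.

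Among the 17 tested receptor partners and coregulators, 1 was called, Nr1d1 (1.28 higher, adjusted p = 0.00112), the clock repressor whose gene overlaps Thra. Of 15 tested hormone response genes, 3 were called higher and 1 lower, where 3.31% and 1.26% of all genes were. Mbp, the myelin protein gene, was 5.17 higher in EOM (adjusted p = 0.00642), where its SD of 3.02 over 8 libraries was large and the oligodendrocyte and Schwann cell sums above reached further than in TA; their part in the result was not tested. Gpd2, the mitochondrial glycerol-phosphate dehydrogenase, was 1.58 higher (adjusted p = 0.0325) and Bcl3, a regulator of NF-kappaB, was 1.09 higher (adjusted p = 0.00921), but neither was called when the donor was included as a block. Thrsp, a gene of lipid synthesis, was 3.43 lower (adjusted p = 0.0202, limma). The adipocyte marker sum was also lower in EOM (median 61.6 RPM against 552 in TA). Of the 8 adipocyte markers only Fabp4, which endothelial cells also express, could be tested. Adipoq, Plin1 and Cfd had 0 reads in TA, and Cidec, Cfd and Lep had 0 in EOM. The part of this sum in the result was not tested. Klf9, a widely used target of the hormone, differed by -0.21 (adjusted p = 0.439), and the called response genes thus moved in both directions. Over 13 alternatives, Mbp and Nr1d1 were called under 12, Slc7a8 under 10, Thrsp under 9, and Gpd2 and Bcl3 under 6. The lists of membrane binding proteins and of thyroid gland genes had 1 and 3 tested genes and no call.

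After grafting, reads of Dio2 and Tshr were lower in cells of both origins. In the 7 EOM grafts Dio2 had 1060 reads (Exp1 replicate 4) and 290, 965, 21, 0, 295 and 295 (Exp2), and in the 7 TA grafts 0 (Exp1 replicate 3) and 50, 63, 0, 128, 67 and 66 (Exp2). In RPM, each EOM graft lay below each EOM library before grafting, and 6 of 7 TA grafts lay below all TA libraries before grafting. The 0-read EOM graft held 9 cells and the 0-read TA grafts 24 and 16.

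Dio2 fell by 3.58 on the log2 scale in EOM cells (SE 1.02, adjusted p = 0.00706) and by 2.87 in TA cells (SE 0.87, adjusted p = 0.0162). Libraries with 0 reads enter these fits at their floor, so the fitted sizes depend on it. Without the 9-cell EOM graft the fall in EOM was 2.37, without the Exp1 EOM graft it was 4.03, and without the Exp1 TA graft the fall in TA was 2.07. In grafts of at least 30 cells Dio2 was 1.64 lower in EOM (adjusted p = 9.26e-04) and 0.90 lower in TA (adjusted p = 0.143).

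Tshr had the largest fall of the 6 tested genes in both muscles. Its reads were 453 (Exp1) and 25, 75, 25, 0, 62 and 60 (Exp2) in EOM grafts, and 0 (Exp1) and 0, 18, 11, 76, 4 and 3 (Exp2) in TA grafts. In both muscles each graft lay below each pre-graft library in RPM, though in reads the highest TA graft overlapped the TA range. Tshr fell by 4.60 in EOM cells (SE 0.77, adjusted p = 2.91e-04) and by 4.36 in TA cells (SE 0.79, adjusted p = 7.71e-04). Without the 9-cell EOM graft the fall in EOM was 3.69 and without the Exp1 EOM graft 5.14, and the change in TA was -4.99 without the Exp2 replicate 4 graft and -3.88 without the Exp1 graft. In grafts of at least 30 cells the changes were -3.44 in EOM and -2.71 in TA (adjusted p = 0.00951), and both were called.

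Slc16a10 fell by 2.95 in EOM (SE 0.68, adjusted p = 0.00203) and by 2.97 in TA (SE 0.71, adjusted p = 0.00460), from the pre-graft values above to 1 to 163 reads (median 14) in EOM grafts and 0 to 74 (median 19) in TA grafts. The Slc16a10 fall was 2.36 in EOM without the graft of Exp2 replicate 5 and 2.24 in TA without the Exp1 graft. Slc16a10 was called under 10 of 14 alternatives in each muscle, with values of -3.36 to -0.38 in EOM and -3.17 to 0.13 in TA. Centring on the library median or on the muscle stem cell markers, edgeR and DESeq2 each ended both calls. Thra, the receptor, had the smallest called fall, 1.27 in EOM (SE 0.31, adjusted p = 0.00302) and 1.58 in TA (SE 0.47, adjusted p = 0.0137), to 36 to 130 and 8 to 134 reads. Thra was called under 9 of 14 alternatives in each muscle. With each library centred on the muscle stem cell markers it turned direction, to 1.31 in EOM (not called) and 1.51 in TA (called higher). In TA that call for a rise is counted among the 9. Thrb had 0 reads in 4 of 7 grafts of each origin and Crym in 4 of 7 EOM and 6 of 7 TA grafts, and neither was called. Within donors, Dio2, Tshr and Slc16a10 were lower after grafting in 7 of 7 TA pairs, and Dio2, Tshr and Thra in 6 of 6 EOM pairs.

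These counts have to be read against a shift of the whole library. In EOM 4 of 6 tested members were called lower, where 55.8% of all 13094 genes tested were called lower and 3.51% higher. In TA 4 of 6 were called lower, where 30.9% of all 13076 genes were called lower and 3.79% higher. The median gene fell by 1.48 in EOM and by 1.09 in TA. Relative to it, Tshr was 3.12 lower in EOM and 3.28 lower in TA, Dio2 2.10 and 1.78 lower, and Slc16a10 1.48 and 1.88 lower, whereas Thra was 0.21 above it in EOM and 0.50 below it in TA.

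The scaling mattered for the size and for the calls. With each library centred on its median, Tshr remained called in both muscles (-3.35 in EOM and -3.47 in TA) and Dio2 was not (-2.33, adjusted p = 0.105, and -1.97, adjusted p = 0.119). With edgeR on the recovered reads, Tshr was called in EOM (-2.57, adjusted p = 0.00528) and not in TA (-1.92, adjusted p = 0.143), and Dio2 in neither. Tshr in EOM was called under all 14 alternatives tried, with values of -5.00 to -2.02.

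Levels of cell type markers in the sorted grafts moved with these falls. The mean log2 RPM of the 11 muscle stem cell markers ran from 9.33 to 9.64 in EOM and 9.11 to 10.0 in TA before grafting, and from 4.10 to 9.20 and 3.26 to 8.54 after it, and all 11 were called lower in TA and 10 of 11 in EOM. Of 8 endothelial markers 7 were called higher in each muscle, with sums of 102 to 770 RPM in EOM and 19.7 to 1948 RPM in TA rising to 226 to 3471 and 921 to 4588. Myofibre markers were called higher in 6 of 7 tested in EOM and 0 of 7 in TA, and fibro-adipogenic markers in 1 of 8 and 5 of 8. The fibro-adipogenic sums ran from 1120 to 16545 RPM in EOM grafts (median 1871, the highest in Exp2 replicate 1 and the next 4321) and from 1107 to 4470 in TA grafts (median 2534). The erythroid sums had medians of 0.941 RPM in EOM and 0.820 in TA before grafting and of 2342 and 3.54 after it. The pericyte and smooth muscle sums ran from 532 to 5019 RPM in EOM grafts and 711 to 6216 in TA grafts, against 857 to 1170 and 652 to 1951 before grafting. The adipocyte sums had medians of 61.6 RPM in EOM and 552 in TA before grafting and of 1595 and 3317 after it. Of the 8 adipocyte markers 1 could be tested, Fabp4, a fatty acid binding protein gene that endothelial cells also express, and it was called higher in both muscles, while Adipoq, Plin1 and Cfd had 0 reads in all passing grafts. The part of these markers in the falls of the pathway genes was not tested.

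Read against the muscle stem cell markers of its own library, Dio2 stood 0.32 ± 0.44 above their mean in EOM before grafting (SD, n = 8) and 0.69 ± 2.22 below it in EOM grafts (n = 7, median 0.41 above). In TA it stood 3.22 ± 0.82 below before grafting and 2.98 ± 1.85 below after it. Tshr went from 0.49 ± 0.32 to 2.51 ± 1.36 below the markers in EOM and from 3.61 ± 0.35 to 4.88 ± 2.72 below in TA. With each library centred on these markers, Tshr was called lower in EOM grafts (-2.02, adjusted p = 0.00513) and not in TA grafts (-1.27, adjusted p = 0.206), while Dio2 was called in neither (-1.01 in EOM, and 0.23, in the other direction, in TA). Between the muscles before grafting, the same centring gave 3.53 for Dio2 and 3.13 for Tshr.

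**Figure D5:**
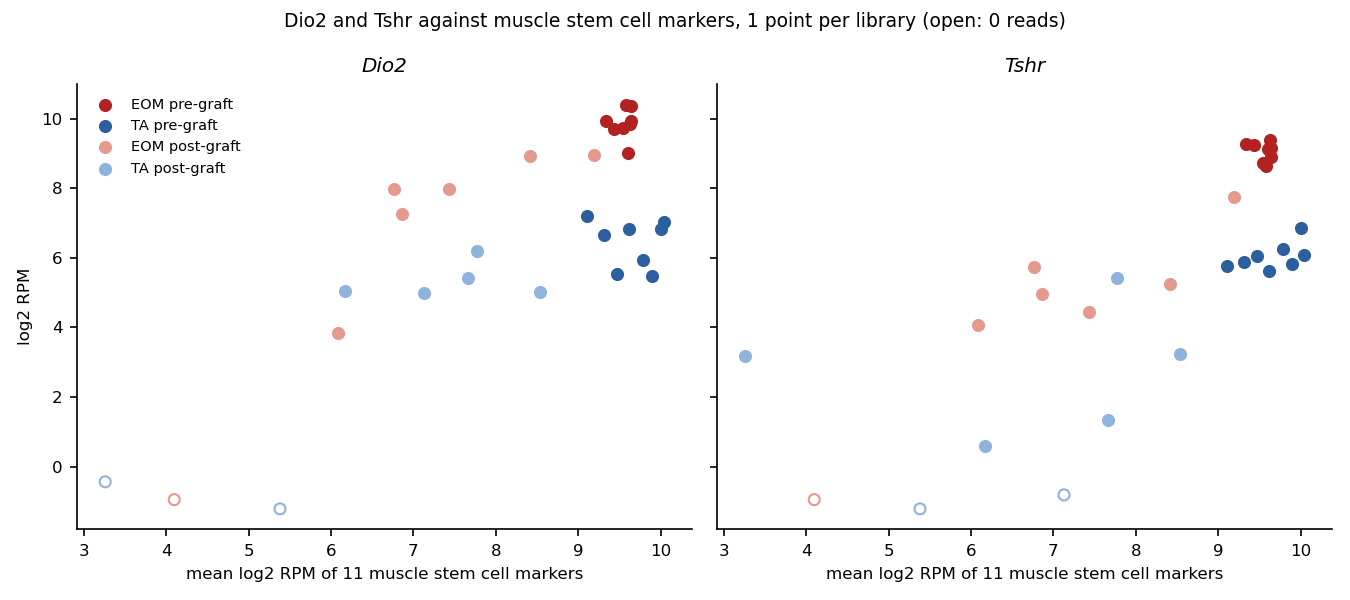
Log2 RPM of Dio2 and Tshr in each passing library against the mean log2 RPM of 11 muscle stem cell markers in that library, coloured by muscle and stage, with open points for 0 reads. Pre-graft libraries sit together at marker means of 9.11 to 10.0 with EOM above TA, and the grafts spread down to 3.26 on the marker axis.

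EOM and TA cells could not be separated by the test once both had been grafted into TA. Dio2 stood at 6.29 ± 3.63 (SD, n = 7) in EOM grafts and 3.57 ± 3.04 in TA grafts, a difference of 2.71 (SE 1.19, 95% interval 0.39 to 5.04, unadjusted p = 0.0281 by limma, adjusted p = 0.9999). Tshr stood at 4.47 ± 2.67 and 1.68 ± 2.40, a difference of 2.79 (SE 1.17, 95% interval 0.49 to 5.08, unadjusted p = 0.0226 by limma, adjusted p = 0.9999). Of 12377 genes tested 0 were called (0.0%), 452 had an unadjusted p under 0.05, and edgeR called 0 and DESeq2 3, none of them among the 8. The interval of each difference still includes the value found before grafting.

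In the 6 donors with both grafts passing, Dio2 was higher in the EOM graft in 5, with a median difference of 2.79 and a range of -7.14 to 4.27, and Tshr in 5, with a median of 3.20. The exception for both genes was the donor whose EOM graft held 9 cells. Without that graft the differences were 3.92 for Dio2 and 3.69 for Tshr, without the Exp1 TA graft that of Dio2 was 1.92, and without the Exp1 EOM graft that of Tshr was 2.24. Within Exp2 alone (6 grafts each) they were 1.47 and 1.76. In Exp1 the single EOM graft had 1060 reads of Dio2 and 453 of Tshr and the single TA graft, from another donor, had 0 of both.

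The change on grafting was also compared between origins directly. The signed log2 change in EOM minus that in TA was -0.71 for Dio2, the fitted fall being larger in EOM (SE 1.43, 95% interval -3.52 to 2.10, adjusted p = 0.949) and -0.23 for Tshr in the same direction (SE 1.13, 95% interval -2.44 to 1.97, adjusted p = 0.974), and no member was called where 0.208% of 14428 genes were. The interval for Dio2 holds both no difference and a loss of its whole excess in EOM, and the graft and muscle comparisons share their libraries.

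On a scale from 0 (mean of TA before grafting) to 100 (mean of EOM before grafting), after subtracting the mean change seen in TA, the 7 EOM grafts stood at 79.2 ± 106 (SD) for Dio2, from -132 to 157 with a median of 129, and 5 of 7 lay above 75 and 2 below 25. For Tshr they stood at 92.2 ± 88.2, from -87.0 to 200 with a median of 109, and 6 lay above 75 and 1 below 25. In the 5 EOM grafts of at least 30 cells the means were 78.3 ± 21 and 75.8 ± 41.9 with medians of 71.3 and 63.1, and for both genes 2 of the 5 lay above 75 and 3 between 25 and 75. With Exp2 alone (6 grafts) the means were lower, at 43.9 ± 112 and 59.1 ± 82.5. Without the subtraction the means were -4.46 and -52.1, so the placement of the grafts rests on that step.

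The other genes of the pathway followed the library-wide shift after grafting. In TA 26 of 66 tested were called lower (39.4%, against 30.9% of all genes) and 1 higher, with a median change of -1.02 against -1.09. In EOM 37 of 62 were called lower (59.7%, against 55.8%) and 1 higher, with a median of -1.45 against -1.48. Between the grafts 0 of 67 were called, and 0 of 69 in the direct comparison of the changes.

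The counts by list stand against 30.9% of all genes called lower in TA and 55.8% in EOM. Of the tested transporters and carriers, 4 of 6 fell in TA and 2 of 6 in EOM. Among them were Slc7a8 (2.99 in TA) and Slc7a5 (2.45 in TA and 2.16 in EOM), light chains of amino acid exchangers. With the donor as a block Slc7a5 was not called in EOM (-2.09, adjusted p = 0.0563), and it was called there under 5 of 14 alternatives. Of the 10 transducers 4 fell in TA, with Adcy7 (3.99), an adenylyl cyclase, and Gnas (2.47) ahead, and 5 in EOM, with Adcy3 (3.53) and the protein kinase A subunit gene Prkaca (3.34) ahead. Of the 17 partners and coregulators 7 fell in TA and 11 in EOM, led by Ncoa1 (2.26) and the retinoid X receptor gene Rxrb (2.25) in TA and by Rxrb (3.28) and Nr1d1 (2.44) in EOM. Of the 13 deiodinase turnover and selenoprotein genes 7 fell in TA and 11 in EOM, led by the selenocysteine elongation factor Eefsec (3.56 in TA and 2.80 in EOM), with the selenoprotein factor Secisbp2 (2.21) in TA and the deubiquitinase Usp20 (2.88) in EOM. In TA grafts of at least 30 cells the changes were -0.72 for Adcy7 (adjusted p = 0.289), -0.46 for Slc7a5, -0.18 for Secisbp2, -1.18 for Rxrb and -3.28 for Eefsec, none of them called, and -1.20 for Slc7a8, which was called. In EOM grafts of that size the change of Slc7a5 was -0.98 and was not called.

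Hormone response genes were called in both directions, as genes were over the whole set tested. Of all genes, 30.9% were called lower and 3.79% higher in TA grafts, and 55.8% and 3.51% in EOM grafts. In TA 4 of 15 fell, led by the corepressor Hr (3.63), and the collagen gene Col6a3 rose by 4.08 (adjusted p = 0.00137; 3.47 and not called in grafts of at least 30 cells, adjusted p = 0.0510), while 5 of 8 fibro-adipogenic markers also rose in those grafts, and their part in the result was not tested. In EOM 8 of 15 fell, led by Hr (4.14), and Thrsp rose by 3.95 (adjusted p = 0.00548, limma). The adipocyte marker sum was also higher in those grafts, and its part in the result was not tested. Of the markers in that sum Fabp4 alone could be tested, and Adipoq, Plin1, Retn and Cfd had 0 reads in EOM grafts. Thrsp and Col6a3 kept their direction under each alternative. Slc7a8, Slc7a5, Gnas, Ncoa1, Rxrb and Secisbp2 in TA and Nr1d1 and Slc7a5 in EOM turned direction only with marker centring. That scaling also puts the median gene higher in the grafts, so these turns are not a result about single genes. Adcy7, Hr and Eefsec in TA and Hr, Adcy3, Prkaca, Rxrb, Usp20 and Eefsec in EOM stayed lower but were not called with marker centring or with edgeR. With marker centring these ran from -1.57 (Hr in EOM) to -0.23 (Eefsec in EOM). In TA, Adcy7 was at -0.89 and Hr at -0.53 there. In EOM, Adcy3 was at -0.95, Prkaca at -0.77 and Usp20 at -0.31. With each library centred on its median, Adcy7, Hr, Slc7a8, Gnas and Ncoa1 in TA and Hr and Prkaca in EOM were still called lower. The other named falls were not. Gnas (-1.54) and Ncoa1 (-1.25) in TA were called lower with edgeR. DESeq2 called these 2 genes in TA and Hr (-2.40) and Prkaca (-1.43) in EOM. The calls of these falls thus depended on the scaling and the tool, and none was kept with marker centring. With edgeR, 1 of the tested genes of these lists was called higher and 2 lower in TA, and 3 higher and 2 lower in EOM. The share of all genes that edgeR called is not set beside these counts, so they describe the lists only.

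The genes whose profile over the 30 libraries was closest to that of Dio2, by root mean square difference of mean-centred log2 RPM among 13216 genes, were Gal (1.43), which encodes the neuropeptide galanin, Gm14616 (1.50) and the serine protease gene Htra3 (1.57), with Tshr at rank 9 (1.79). For Tshr they were Tceal3 (1.44), Tprkb (1.50) and Igdcc4 (1.53). These libraries differ in depth and in cell type marker levels as well as in origin, and the ranks are a description.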

How the data were processed

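RNA of sorted MuSCs was sequenced by the authors as 75 bp paired reads, trimmed (Trim Galore 0.4.4) and aligned to GRCm38 (HISAT2 2.1.0). The deposited values are log2 RPM per gene from Seqmonk, with 0 reads set to 0.9 read, and over genes they summed to 1072417 to 1526294 RPM per library. Counts were recovered from the deposited steps (99.986% of values above the floor whole within 0.02 read). The study's quality control asked for over 500000 reads, at least 70% in genes and at least 65% in exons, and 31 libraries met it, 1 of which was left out by the study as an outlier. Bisulfite libraries (40) were not analysed here.

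The main test was limma 3.58.1 (R 4.3.3) with an intensity trend on log2 RPM, over the 2 groups compared or all 4 for the difference of changes, keeping genes above a log2 RPM of 1 in at least 4 libraries, with Benjamini-Hochberg adjustment over all of them. Alternatives used edgeR 4.0.16 and DESeq2 1.42.0 on recovered counts, other filters, scalings and sample sets. Libraries of a donor share its number, which pairs them by design, and their deviations correlated at -0.22 to 0.18 across comparisons. The main fits did not use this pairing. P-values measure the spread between libraries of a group, each from another mouse. Graft libraries of a group also differed in cell number and mitochondrial share, so this spread is not that between mice alone.

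All 8 genes were named throughout. From other lists, up to 4 called genes with the largest change were named before grafting and up to 2 in each graft comparison, plus genes at the ligand, carrier and target steps that were picked after their values were seen. A gene that this rule would name is not reported here. The members and lists were chosen with earlier results of these data known. The limma and edgeR tests were checked on counts simulated for EOM against TA before grafting, with the same dispersion for all genes. DESeq2, the graft comparisons and the difference of changes were not checked in this way.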

Additional observations from a re-analysis of the deposited data

Results flagged for a closer look

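In 25 combinations of gene and group, the sample farthest from the others was compared with the range of its group, and 3 stood apart. No chance rate is set beside this count, since each of the 3 groups holds values at the floor of 0 reads. Tshr in the 9-cell EOM graft (Exp2 replicate 4) had 0 reads and a log2 RPM of -0.95, with the other 6 EOM grafts at 4.08 to 7.74. Crym in the EOM graft of Exp1 replicate 4 had 21 reads and a log2 RPM of 3.31, with the others at -0.95 to 0.65. Crym in the TA graft of Exp2 replicate 2 had 51 reads and a log2 RPM of 4.72, with the others, all at 0 reads, at -1.22 to -0.44. Outside the libraries used, Dio1 had 10 reads (log2 RPM 2.22) in the EOM graft of Exp1 replicate 3, which did not pass the quality control, and 0 in the 30 that did.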

How the results depend on the processing

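Before grafting, the excess of Dio2 in EOM was called under 12 of 13 alternatives (3.05 to 3.80) and that of Tshr under 13 of 13 (2.76 to 3.13). With 1 fit over the 4 groups, 1 member was called, Tshr, and Dio2 kept its size (3.43, adjusted p = 0.0755). Including the donor as a replicate block, with same-numbered libraries coming from the same mouse, left 2, 4, 4, 0 and 0 members called before grafting, in TA and EOM grafts, between grafts and for the difference of changes, as without it. It gave 3.47 for Dio2 and 2.93 for Tshr before grafting, and changed no call of the 8 genes. Calls on grafting depended on the scaling and the tool. In TA, 4 members became 2 with Exp2 alone and 2 with scaling without mitochondrial genes (Slc16a10 and Tshr each time), 1 with each library centred on its median (Tshr), 1 with centring on 11 muscle stem cell markers (Thra, higher), 0 with edgeR and 0 with DESeq2. In EOM, 4 became 2 without mitochondrial genes (Slc16a10 and Tshr), 1 with median centring (Tshr), 2 with marker centring (Tshr, and Crym higher), and 1 with edgeR and 1 with DESeq2 (Tshr). The marker centring was chosen after seeing the data and puts the median gene at 2.01 higher in TA grafts and 1.10 higher in EOM grafts. Apart from these scalings the cause of the changes was not tested.

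Of the values reported, directions turned as follows. Before grafting, Thrb was at 0.72 with all libraries, where a failed EOM library with 0 reads of it enters at its floor of 10.74 (log2 RPM). Slc16a10 was at -0.051 without mitochondrial genes, -0.13 with median centring, -0.18 with edgeR and -0.19 with DESeq2. With marker centring the change in TA was 0.23 for Dio2, 1.51 for Thra, 1.17 for Thrb, 0.13 for Slc16a10 and 2.19 for Crym, and in EOM it was 1.31 for Thra, 0.61 for Thrb and 2.42 for Crym. Crym in TA was at 0.50 with edgeR and 0.17 in grafts of at least 30 cells. In EOM, Thra was at 0.036 with DESeq2, Thrb at 0.025 with edgeR and 0.085 with DESeq2, and Crym at 0.73 without mitochondrial genes, 1.10 with median centring, 0.25 with edgeR, 0.23 with DESeq2 and 0.31 in grafts of at least 30 cells. The difference of changes for Tshr was 0.085 with all libraries, 0.052 without mitochondrial genes and 0.18 with median centring. The mean position of EOM grafts for Tshr was -52.1 with no subtraction of the TA change, and that for Dio2 -4.46. Between grafts, where none was called, Slc16a10 ran from -1.16 to 0.76 and Thrb from -0.91 to 0.59 over the alternatives, and the differences of changes of Thra, Thrb, Slc16a10 and Crym also crossed 0.

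Leaving out 1 library at a time, the members called stayed at 2 before grafting, 4 to 5 in TA grafts, 4 to 5 in EOM grafts and 0 in the other comparisons, the fifth being Thrb (in TA without the Exp1 graft, in EOM without a pre-graft or graft library of Exp2 replicate 1 or 6). Dio2 ran from 3.29 to 3.55 and Tshr from 2.96 to 3.14 before grafting. Ranges that crossed 0 were -0.49 to 0.088 (Thrb), -0.045 to 0.20 (Slc16a10) and -0.69 to 0.075 (Crym) before grafting, -0.46 to 0.059 for Crym in EOM, and -1.51 to 0.49 (Dio2) and -0.78 to 0.67 (Tshr) for the difference of changes. Depth limits Dio1, Dio3, Thrb and Crym, which had few or 0 reads in most libraries.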
